A study of Mus musculus with 10 samples.

Results

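The cytosolic ribosomal protein genes encode the protein parts of the ribosome that works in the cytoplasm, which joins a small subunit that reads the mRNA to a large subunit that forms the peptide bonds. They were taken by name, as every mouse symbol made of Rpl (large subunit) or Rps (small subunit) and a number with an optional letter, together with Rplp0, Rplp1, Rplp2 and Rpsa, provided that at least 2 arrays gave a probe of the gene a detection p under 0.05. The rule left out the kinases of Rps6, pseudogene names and Rps27l. By the form of their symbols it also left out other measured genes, among them Rps3a1, Rpl36al, Rpl22l1 and Rpl7l1. It gave 59 of the 16144 genes measured, 35 for the large and 24 for the small subunit. All 59 matching symbols on the array passed the detection filter, against 83 matching symbols in the reference gene table, and 53 of the 59 were detected on all 10 arrays. The other 6 were Rpl14, Rpl39l, Rpl3l, Rps15a, Rps20 and Rpsa. Rps4l, which the name rule admits, is annotated as a transcribed pseudogene.

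The RNA came from endothelial cells sorted by flow cytometry from lungs of C57/Bl6 mice at postnatal day 6, amplified by single primer isothermal amplification and hybridised to Illumina beadchips, with 1 array per sample. Rspo3-iECKO (n = 3) was Rspo3fl/fl x Cdh5CreERT2+ and its control Rspo3-WT (n = 2) was Rspo3fl/fl x Cdh5CreERT2-. Evi-iECKO (n = 2) was Evifl/fl x Cdh5CreERT2+ and its control Evi-WT (n = 3) was Evifl/fl x Cdh5CreERT2-. Both controls thus carried the floxed alleles and no Cre, and the Cdh5 promoter limits Cre chiefly to endothelium, so that most other cells of the deleted animals keep the gene. Rspo3 is a secreted amplifier of Wnt signals, and Evi, also called Wls, carries Wnt ligands out of the cell that makes them.

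Most ribosomal proteins, though not all, are needed in equal numbers for assembly. In mammals most ribosomal protein mRNAs begin with a terminal oligopyrimidine tract, a C followed by a run of C and T. Through this tract the growth kinase mTORC1 sets their translation. Their mRNAs are among the most abundant in any cell, and Myc, a target of Wnt signalling in several tissues, raises their transcription. Values below are log2 normalized intensities, or differences between them, and each gene is read by its brightest probe. The level of one probe cannot be set against that of another, so genes are compared only with themselves across arrays.

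The starts of 8 members on which the results turn are shown as annotated by RefSeq (GRCm38.p6), 15 bases before to 15 bases from the start, 5′ to 3′ on the gene's strand, with the pyrimidine tract in capitals where one was found. The first 4 hold a tract: Rpl34 and Rps15a, which read above their controls in both mouse lines, and Rplp2 and Rps6, with every array of the Rspo3 line above every array of the Evi/Wls line. The other 4, without one, are Rpl22, whose sign turned between the deletions, Rpl41, Rpl9, with its arrays ordered like those of Rplp2, and Rps7, with a small unadjusted p between the wild-type arms. None of the 8 passed in the gene fit. Rpl34 and Rpl22 have 2 annotated starts each, of which 1 is shown. The Rpl22 start shown lies inside the gene, downstream of its first annotated base at chr4:152324436.
Rpl34 (chr3:130730384-130730413, minus strand): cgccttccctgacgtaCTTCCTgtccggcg
Rps15a (chr7:118116133-118116162, minus strand): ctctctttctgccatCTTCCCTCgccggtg
Rplp2 (chr7:141447636-141447665, plus strand): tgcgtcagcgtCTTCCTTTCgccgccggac
Rps6 (chr4:86857353-86857382, minus strand): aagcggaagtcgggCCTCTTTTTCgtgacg
Rpl22 (chr4:152325711-152325740, plus strand): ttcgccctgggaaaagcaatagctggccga
Rpl41 (chr10:128549154-128549183, minus strand): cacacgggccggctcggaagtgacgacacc
Rpl9 (chr5:65391417-65391446, minus strand): acgcagggccctgacggattacaagaacgt
Rps7 (chr12:28635939-28635968, minus strand): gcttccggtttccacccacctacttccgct

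A tract was counted where a C within 5 bases of the annotated start, on the sense strand, was followed by at least 4 pyrimidines. It was found in 23 of the 48 members with an entry in the promoter table (47.9%), against 21.2% of the 27025 genes in that table. TATAAA within 40 bases before the start was found in 0 of the 48 members and in 2.78% of all genes in the table. An annotated start can lie some bases away from the start used by the cell, so a missing tract says only that these letters are not in this window. Members with and without a tract had median differences of 0.034 and 0.084 with the Rspo3 deletion, of 0.12 and 0.021 with the Evi/Wls deletion, and of 0.019 and 0.0003 between the wild-type arms. The order of the medians was thus not the same in the deletions.

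On each array 46.5% to 51.3% of probes were detected, with 49.8% or more on every Rspo3-line array and 48.6% or less on every Evi-line array. All 10 pan-endothelial markers were measured, among them Cdh5, and their summed intensity per array ran from 7490 to 9350. Wls checked its label: on the probe used for the gene it read 4.85 and 4.68 in Evi-iECKO against 5.68, 6.21 and 5.69 in Evi-WT, a difference of -1.10 (SE 0.27, limma adjusted p = 0.357). Neither Rspo3 probe was detected on any array of the Rspo3 line, so the arrays do not check that deletion. The lines cannot be told apart from any batch that followed them, and the columns of each line are headed in a different wording. The labels do not say if RNA of several animals was pooled, so the tests rest on the spread between the deposited samples, which may in part be technical.

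The 2 Evi-iECKO arrays were unlike each other in the members. The SD of the members' deviations from their own means was 0.44 on Evi-iECKO replicate 1 and 0.19 to 0.28 on the other 9 arrays. Over all genes both Evi-iECKO arrays had the largest SD, 0.346 and 0.348, against 0.237 to 0.301 on the arrays of the other groups. Between the 2 replicates 4 members were lower by more than 2-fold on replicate 1 (6.78%, against 2.92% of all genes), and 1, Rps18, was higher by that much (1.69%, against 3.16% of all genes). Rps6, the small subunit protein that S6 kinase phosphorylates, read 5.80 on replicate 1 and 7.35 on replicate 2. Rps4l read 4.61 and 6.28, Rpl24 read 7.70 and 9.11, and Rps16 read 7.18 and 8.36. Evi-iECKO replicate 2 in turn held the highest summed intensity of the 9 measured alveolar type 2 and epithelial markers, 2020 against 381 on replicate 1 and 396 to 805 on the other arrays. The 6 measured myeloid markers summed to 933 and 194 on the same arrays, against 247 to 454 elsewhere, and this gap was that of Lyz1, a lysozyme gene, at 9.62 and 5.65 in log2 units. The other 5 myeloid markers summed to 146 and 144, against 124 to 178 elsewhere. The 5 measured erythroid markers summed to 1390 on replicate 2 and 426 on replicate 1, against 776 to 1720 elsewhere, and with the Evi/Wls deletion their median difference was -0.518. In each of these lists some markers were not among the measured genes. They included Epcam for the epithelium, S100a8, S100a9, Marco and C1qa for myeloid cells and Hbb-bt, Hbb-bs, Hba-a2 and Ahsp for erythroid cells. Lack of a probe under that name and failure of the detection filter were not told apart. The part of these cells in the results was not tested. In sorted bulk RNA, fewer cells of a type and less RNA per cell cannot be told apart.

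**Figure D1:**
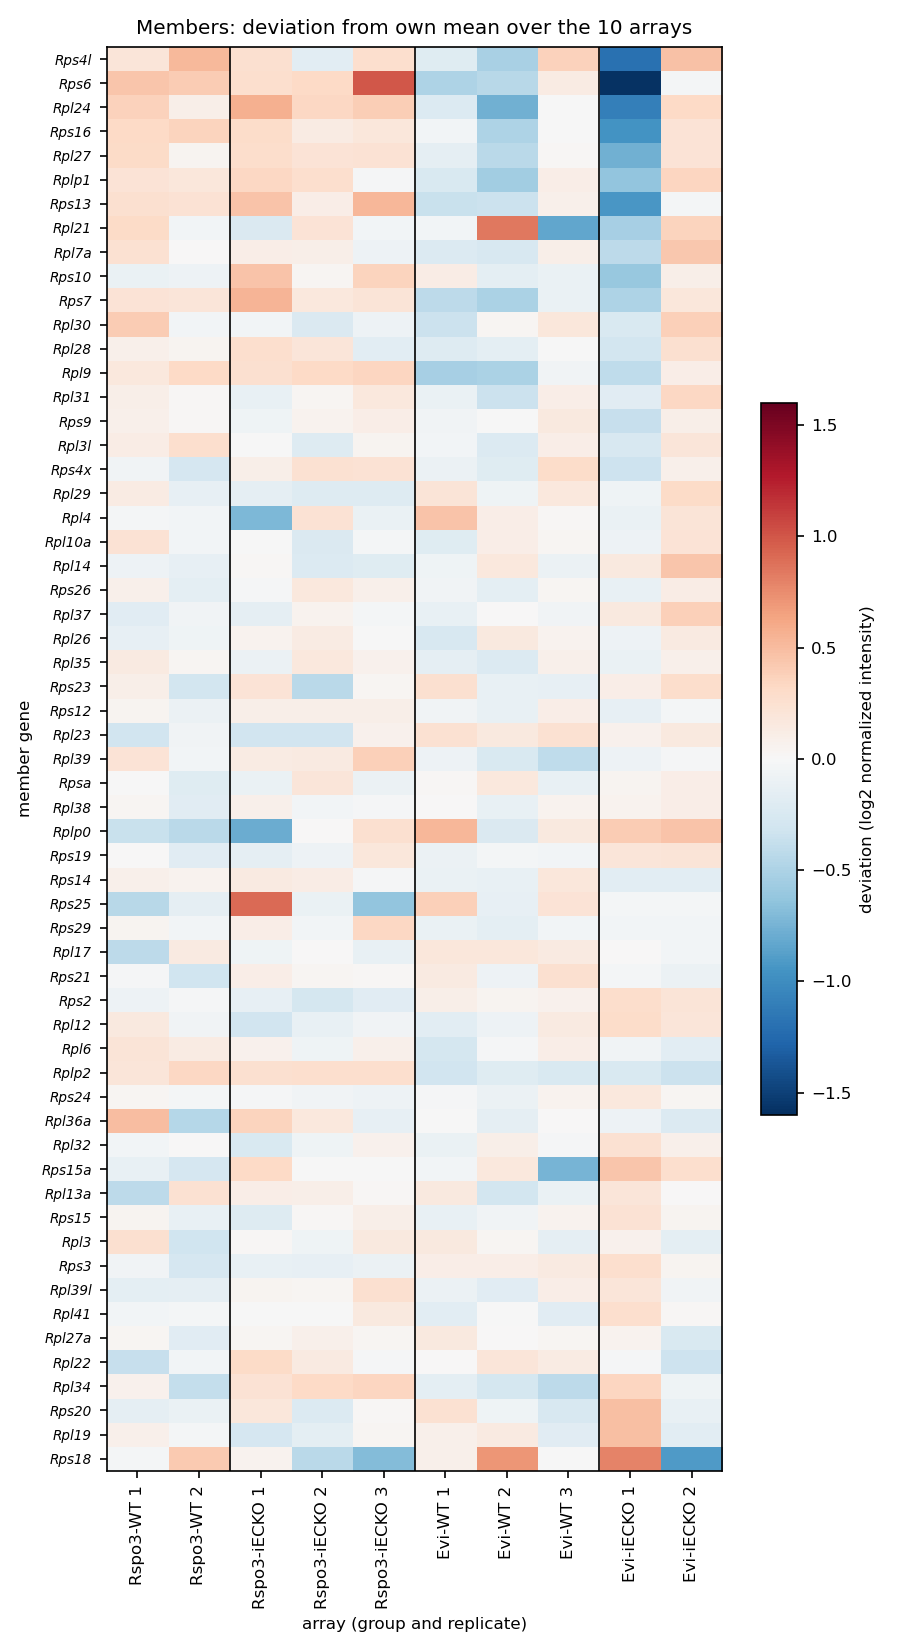
Deviation of each of the 59 members (rows) from its own mean over the 10 arrays (columns, by group and replicate), in log2 units, red above and blue below the mean, with members ordered by the difference between the Evi-iECKO replicates. Evi-iECKO replicate 1 is lowest for Rps4l, Rps6, Rpl24 and Rps16 at the top, and highest for Rps18 at the bottom.

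The first question was whether loss of endothelial Rspo3 altered the levels of ribosomal protein mRNAs. No member passed an adjusted p of 0.05, and neither did any other gene (0%). At an unadjusted p below 0.05 there was 1 member above its control, Rpl34 (1.69%, against 2.35% of all genes), and 0 below (2.01% of all genes). The median over members was 0.066, beside -0.0076 over all genes, and 38 of 59 lay above 0 (48.5% of all genes). No member differed by more than 1.5-fold, and for 55 of 59 the 95% confidence interval stayed within a 2-fold difference either way (91.9% of all genes). The median over members was -0.0067 without Rspo3-WT replicate 2, and with median scaling in place of quantile normalization it was 0.28, where that of all genes was 0.11.

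Rpl34, a large subunit protein, had the smallest p of the members in that comparison. Its levels were 8.89, 8.98 and 9.01 in Rspo3-iECKO and 8.74 and 8.29 in Rspo3-WT. All 3 deleted arrays lay above both controls, with a difference of 0.45 (SE 0.20, limma adjusted p = 1). Rps10, a small subunit protein, read 7.71, 7.29 and 7.61 against 7.14 and 7.17, also without overlap, for a difference of 0.38 (SE 0.22, limma adjusted p = 1). Rps4x, the X-linked copy of the S4 protein gene, read 10.13, 10.28 and 10.26 against 9.98 and 9.77. Its difference was 0.35, with the groups apart. Groups did not overlap for 10 members on the high side (16.9%, against 10.8% of all genes) and for 6 on the low side (10.2%, against 11.9%).

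On the lower side Rps18, a small subunit protein, had the largest difference, -0.55 (SE 0.41, limma adjusted p = 1). It read 6.49, 6.01 and 5.74 in Rspo3-iECKO and 6.41 and 6.86 in Rspo3-WT, so the groups overlapped. Rpl30, a large subunit protein, read 7.09, 6.91 and 7.06 against 7.54 and 7.09, a difference of -0.30. The next members by p on this side, Rpl3l, Rpl12, Rpl29, Rpl10a, Rps2, Rpl6, Rpl19 and Rpl4, lay between -0.24 and -0.14, except that with median scaling Rpl12 and Rpl29 turned to 0.094 and 0.089, where the median of all genes also moved up. Rpl3l, a form of Rpl3 known from striated muscle, was detected on 6 arrays only. On the higher side Rpl39l, a form of Rpl39 known from the testis, was detected on 2 arrays, 1 of Rspo3-iECKO and none of Rspo3-WT. Set against the lowest detected signal its fold was 1.07. With so little detection in Rspo3-iECKO as well, this value is not a minimum fold. The confidence interval of its fold, 0.912 to 1.56, included no change. Rpl14 and Rpsa, the latter also known as a laminin receptor gene, were detected on 4 and 2 arrays and on none of Rspo3-WT, and their differences of -0.028 and 0.094 carry no fold. The members read on the brightest spots, Rpl23, Rps29, Rpl38, Rpl27a and Rps24, gave -0.053 to 0.13 with the Rspo3 deletion.

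For the Evi/Wls deletion no member and no other gene (0%) passed. Rps15a, a small subunit protein, was the 1 member at an unadjusted p below 0.05 on the high side (1.69%, against 4.47% of all genes), and there were 0 on the low side (3.52%). The median over members was 0.054, beside 0.009 over all genes, with 35 of 59 above 0 (51.4% of all genes), and for 55 of 59 the 95% confidence interval again stayed within 2-fold (88.5% of all genes). The member median rested on single arrays: it was 0.15 without Evi-iECKO replicate 1 and -0.043 without Evi-iECKO replicate 2, and with median scaling it was -0.013.

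Rps15a read 5.50 and 5.32 in Evi-iECKO against 5.02, 5.23 and 4.31 in Evi-WT. Both deleted arrays lay above the controls, for a difference of 0.56 (SE 0.25, limma adjusted p = 0.595). It was not detected on Evi-WT replicate 3, the array at 4.31, and without that array the difference was 0.30. Without background correction it was 0.17, and 0.16 in the authors' normalized values. Rpl34 came next at 9.01 and 8.60 against 8.51, 8.39 and 8.25, with the groups apart and a difference of 0.42 (SE 0.20, limma adjusted p = 0.646). Rpl37, a large subunit protein, read 10.49 and 10.72 against 10.21, 10.34 and 10.28, a difference of 0.33. Rps19, the small subunit protein that is mutated in some humans with Diamond-Blackfan anaemia, read 10.72 on both deleted arrays against 10.43, 10.49 and 10.47, a difference of 0.26 without overlap.

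The most negative difference with the Evi/Wls deletion was that of Rps6, -0.54 (SE 0.38, limma adjusted p = 0.79), and it rested on 1 array. Its levels were 5.80 and 7.35 in Evi-iECKO and 6.89, 6.94 and 7.51 in Evi-WT. Evi-iECKO replicate 1 was the lowest and replicate 2 lay among the controls. Without replicate 1 the difference was 0.24. Rps13 and Rps10, both of the small subunit, turned in the same way, from -0.28 to 0.17 and from -0.21 to 0.13. Groups did not overlap for 8 members on the high side (13.6%, against 10.8% of all genes) and for 3 on the low side (5.08%, against 9.20%).

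The lines have separate controls, so a member can be read in both. In both lines, though, only the deleted groups carried Cre, so the deletion cannot be told apart from Cre itself. There were 21 members above 0 in both deletions (35.6%, against 24.9% of all genes) and 7 below 0 in both (11.9%, against 24.9%). In 3 members the deleted arrays lay above all controls in both lines (5.08%, against 1.40% of all genes), and in 0 below (1.08%). These 3 were Rpl34, Rps15a and Rpl41. For the mean of both deletions 0 members passed (0% of all genes), and 2 had an unadjusted p below 0.05 on the high side (3.39%, against 3.21% of all genes), Rpl34 and Rps15a, with 0 on the low side (2.60%). Rpl34 gave 0.43 (SE 0.14, limma adjusted p = 0.68), or 1.35-fold with a 95% confidence interval of 1.09 to 1.67. Single arrays weighed on it within each line: the Rspo3 value was 0.22 without Rspo3-WT replicate 2 and 0.67 without Rspo3-WT replicate 1, and the Evi/Wls value 0.21 without Evi-iECKO replicate 1. Rps15a, at 5.38, 5.05 and 5.06 in Rspo3-iECKO against 4.94 and 4.79, gave 0.43 over both lines (SE 0.18, limma adjusted p = 0.824), and 0.13 without background correction. The median over members was 0.037, beside -0.0009 over all genes, and 39 of 59 lay above 0 (49.8% of all genes). For 58 of 59 the 95% confidence interval stayed within 2-fold (98.6% of all genes).

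Rpl41, the smallest ribosomal protein, showed the same ordering at a smaller size. It read 10.91, 10.91 and 11.08 in Rspo3-iECKO against 10.88 and 10.89, and 11.19 and 10.93 in Evi-iECKO against 10.75, 10.91 and 10.74. The gaps between the groups were narrow, and the difference for the mean of both deletions was 0.17 (SE 0.12, limma adjusted p = 0.914).

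**Figure D2:**
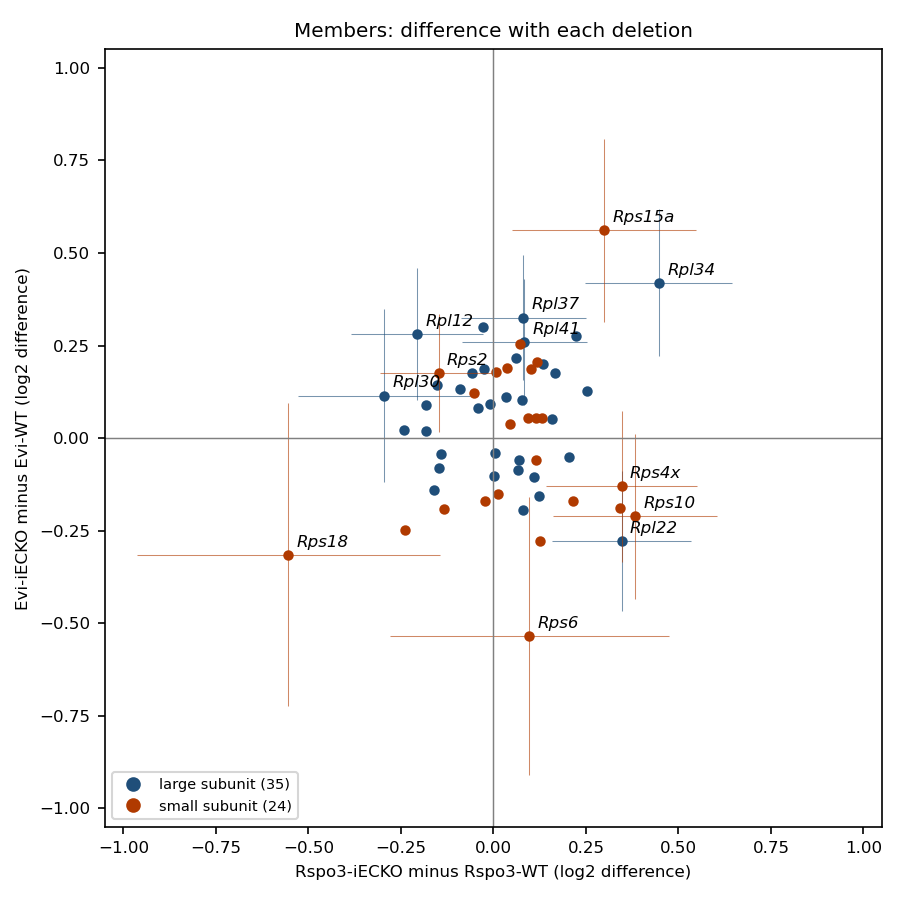
Log2 difference of each member with the Rspo3 deletion (horizontal) and with the Evi/Wls deletion (vertical), blue for the 35 large and red for the 24 small subunit members, with SE bars on the labelled members. Rpl34 and Rps15a lie farthest to the upper right, while Rpl22, Rps10 and Rps4x lie to the right and below 0.

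A direct comparison asked whether the members answered the deletions differently. For the Evi/Wls effect minus the Rspo3 effect 0 members passed (0% of all genes), 0 had an unadjusted p below 0.05 on the high side (3.41% of all genes) and 1 on the low side, Rpl22 (1.69%, against 2.66%). Rpl22 is a large subunit protein that T cell development in mice depends on and that acts on the mRNA of its paralog Rpl22l1. It read 6.87, 6.71 and 6.55 in Rspo3-iECKO against 6.20 and 6.53 in Rspo3-WT, a difference of 0.35 (SE 0.19). In the other line it read 6.55 and 6.24 in Evi-iECKO against 6.57, 6.75 and 6.69 in Evi-WT, a difference of -0.28 (SE 0.19). The groups were apart in both lines and in opposite directions, and the difference of the effects was -0.62 (SE 0.27, limma adjusted p = 0.809). It was -0.33 without background correction and -0.98 with median scaling. Rpl22l1, which the name rule leaves out, gave 0.39 and 0.17 (SE 0.21 in both).

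Rps2, which sits where the mRNA enters the small subunit, was the other member whose groups were apart in opposite directions, 2 of 59 in all (3.39%, against 2.35% of all genes). It read 9.70, 9.55 and 9.66 in Rspo3-iECKO against 9.76 and 9.81, and 10.12 and 10.04 in Evi-iECKO against 9.93, 9.89 and 9.90. The difference of its effects was 0.32 (SE 0.23, limma adjusted p = 0.897), and -0.029 with median scaling. A second Rps2 probe gave 0.092 and 0.0083, so the turn of sign was seen on the brighter probe only. Rpl12, a large subunit protein at the base of the stalk, had -0.21 and 0.28, a difference of 0.49 (limma adjusted p = 0.861), and Rps10 and Rps4x had differences of -0.59 and -0.48. Of the 59 members 32 had a difference of effects above 0 (52.2% of all genes). The interval of the difference was wider than for either deletion, and stayed within 2-fold for 46 of 59 members (60.4% of all genes).

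**Figure D3:**
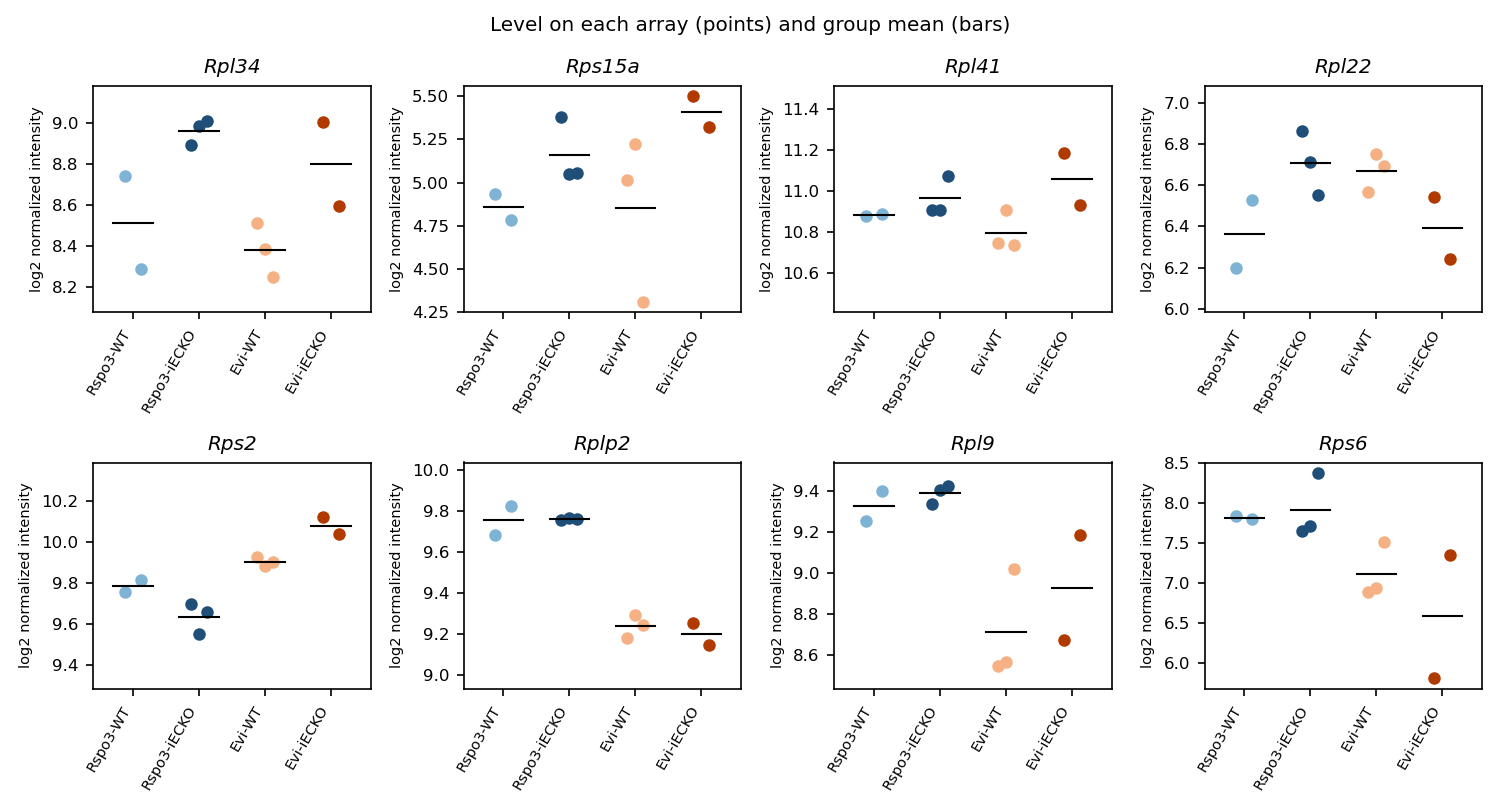
Log2 normalized intensity of 8 members on each array (points) with the mean of each group (bars), in the order Rspo3-WT, Rspo3-iECKO, Evi-WT, Evi-iECKO, and with an axis of its own for each gene. Rpl34, Rps15a and Rpl41 have deleted arrays above the controls in both lines, Rpl22 and Rps2 turn direction between lines, and Rplp2, Rpl9 and Rps6 separate the lines rather than the deletions.

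The wild-type arms, Rspo3-WT minus Evi-WT, show how far the lines differ with no deletion. In the gene fit 0 members passed, where 6 of all genes did (0.0372%). At an unadjusted p below 0.05 there were 3 members on the high side, Rplp2, Rpl9 and Rps7 (5.08%, against 4.53% of all genes), and 1 on the low side, Rpl23 (1.69%, against 4.27%). Groups did not overlap for 13 members on the high side (22%, against 11.9% of all genes) and for 8 on the low side (13.6%, against 13.5%). The median over members was 0.01, beside -0.017 over all genes. The members that followed by p on the high side, Rps6, Rpl39, Rps16, Rps13, Rpl24, Rplp1 and Rpl27, lay between 0.33 and 0.70. The 95% confidence interval stayed within 2-fold for 49 of 59 members (87.5% of all genes), and 33 of 59 lay above 0 (47.6%).

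Rplp2, which with Rplp1 forms the acidic stalk that recruits elongation factors to the large subunit, had the smallest p of the members. It read 9.68 and 9.82 in Rspo3-WT and 9.18, 9.29 and 9.24 in Evi-WT, a difference of 0.51 (SE 0.16, limma adjusted p = 0.348), which was 0.80 with median scaling and 0.13 as the mean of all its probes. The deleted arrays followed their lines, at 9.75, 9.76 and 9.76 in Rspo3-iECKO and 9.25 and 9.15 in Evi-iECKO. All 5 arrays of the Rspo3 line thus lay above all 5 of the Evi/Wls line, while the deletions gave 0.0056 and -0.041. A contrast of the lines over both of their groups, added after seeing the data, gave 0.54 (SE 0.11, limma adjusted p = 0.0536). It called 125 of all genes (0.774%) and 0 members. At an unadjusted p below 0.05 it held 9 members on the high side (15.3%, against 7.27% of all genes) and 4 on the low side (6.78%, against 8.08%).

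The lines were fully apart on the high side for 4 members in that contrast (6.78%, against 1.88% of all genes). Besides Rplp2 these were Rps6 at 1.02 (SE 0.27), Rps13 at 0.65 (SE 0.18) and Rpl9 at 0.54 (SE 0.15), with limma adjusted p-values of 0.0962, 0.114 and 0.108. Rps6 read 7.83 and 7.79 in Rspo3-WT and 7.65, 7.70 and 8.37 in Rspo3-iECKO, all above the 7.51 that was the highest of the Evi/Wls line. Rps13 read 9.72 to 10.14 over the 5 arrays of the Rspo3 line and 8.67 to 9.69 over the other 5, so that the gap between the lines was narrow. A second Rps13 probe, detected on all 10 arrays, gave -0.0655 (SE 0.15) in this contrast, and its lines overlapped. Rpl9, a large subunit protein, read 9.26 and 9.40 in Rspo3-WT and 9.34, 9.40 and 9.43 in Rspo3-iECKO, against 8.55, 8.57 and 9.02 in Evi-WT and 8.67 and 9.19 in Evi-iECKO. Rps7, a small subunit protein that can bind the p53 regulator Mdm2, read 8.71 and 8.69 in Rspo3-WT against 8.08, 7.99 and 8.38 in Evi-WT, but at 8.67 Evi-iECKO replicate 2 reached the Rspo3 line's lowest array. The lines were apart on the low side for 2 members, Rps2 at -0.28 and Rps3 at -0.28 (3.39%, against 1.99% of all genes). The other probe of each went the other way in this contrast, at 0.45 for Rps2 and 0.073 for Rps3. Without Evi-iECKO replicate 2 the contrast called 8 members, namely Rpl24, Rpl27, Rpl9, Rps13, Rps16, Rps4l, Rps6 and Rps7, and 325 genes in all. That fit left Evi-iECKO replicate 1 as the only array of its group, and all 8 members read lower on it than on replicate 2. Replicate 2 also had the highest epithelial marker sum and the highest Lyz1 level. The cause of the added calls was not tested.

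Rplp0, the stalk base protein that holds Rplp1 and Rplp2, ran the other way. It read 5.32 and 5.23 in Rspo3-WT against 6.20, 5.44 and 5.82 in Evi-WT, a difference of -0.55 (SE 0.29, limma adjusted p = 0.631). Rplp1 read 10.97 and 10.93 against 10.50, 10.19 and 10.85, a difference of 0.44 (SE 0.27). On their brightest probes the 3 stalk genes therefore did not share a direction between the wild-type arms, and none of them passed in the gene fit. Second probes of Rplp0 and Rplp2 gave -0.12 and -0.25. Rpl23, a protein of the large subunit that also binds Mdm2, read 12.80 and 13.05 against 13.35, 13.26 and 13.35, a difference of -0.40 (SE 0.18, limma adjusted p = 0.566).

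For 18 members more than 1 probe passed the detection filter, 41 probes in all. All probes of a member had 1 sign in 6 of the 18 for the Rspo3 deletion, in 9 for the Evi/Wls deletion and in 10 between the wild-type arms. Probes of these genes can lie at different places of the mRNA, and many processed pseudogenes have near-identical sequence, so which copies each probe read is uncertain. Probe positions were not used here.

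In a fit of the contrast of the lines to probes rather than genes, also added after seeing the data, 4 of 82 member probes passed (4.88%), against 319 of 24246 probes in all (1.32%). The strongest was a second probe of Rps12, a small subunit protein, at 0.86 (SE 0.14, limma adjusted p = 0.0172). This probe read 9.002, 8.78 and 8.71 in Rspo3-iECKO and 8.97 and 8.80 in Rspo3-WT, against 7.75, 7.94 and 8.25 in Evi-WT and 7.95 and 8.08 in Evi-iECKO. The lines were fully apart, yet the brightest Rps12 probe gave 0.087 (SE 0.12) and its arrays overlapped. The Rps12 second probe passed in 7 of 10 fits that left out an array, with adjusted p-values of 0.0184 to 0.0786, and not without Rspo3-iECKO replicate 1, Rspo3-WT replicate 1 or Rspo3-WT replicate 2.

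The brightest Rplp2 probe passed in the probe fit at an adjusted p of 0.0467, and in 0 of 10 limma fits that left out an array (adjusted p = 0.0597 to 0.147). The other Rplp2 probe, detected on 8 arrays, gave -0.21 (SE 0.21). A second probe of Rpl27a, a large subunit protein, gave 0.59 (SE 0.13, limma adjusted p = 0.0467), and 2 further Rpl27a probes 0.40 and 0.31, while its brightest probe gave -0.0038. A dim probe of Rpl31, another large subunit protein, gave 0.74 (SE 0.15, limma adjusted p = 0.0396) and was detected on 5 arrays, against 0.064 and 0.0088 on its other probes. Leaving out an array kept the Rpl27a call only without Evi-iECKO replicate 2 and the Rpl31 call only without Evi-iECKO replicate 1. The same Rpl31 probe gave 0.62 with the Rspo3 deletion (SE 0.21), where the next Rpl31 probe gave -0.41.

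**Figure D4:**
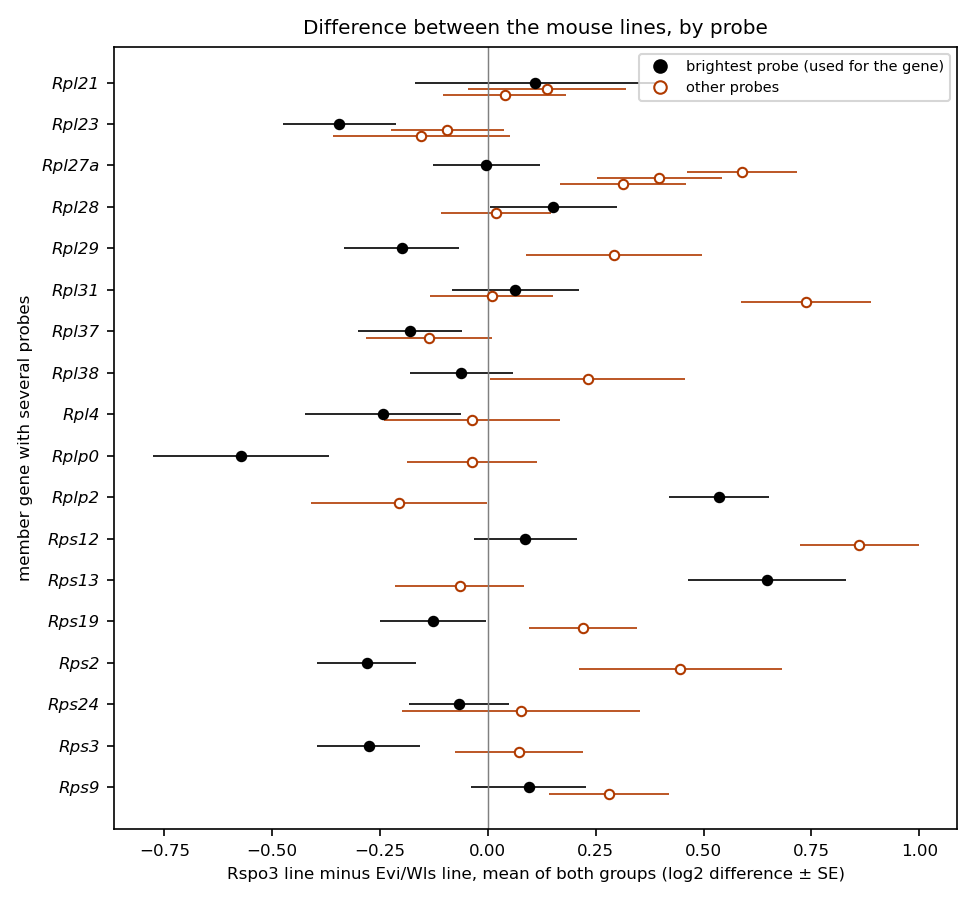
Log2 difference between the Rspo3 and the Evi/Wls line, as the mean of both groups of each line, for every probe of the 18 members with several probes, with SE bars; filled points are the brightest probes and open points the others. Open points of Rps12 and Rpl27a and 1 of the 2 of Rpl31 lie far to the right of the filled ones, and those of Rplp2 and Rps13 to the left.

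Beyond single genes the members varied less between replicates than other genes. Their median residual SD was 0.168, beside 0.237 over all genes, and 39 of 59 lay below the latter. The mean deviation of the members was 0.051 ± 0.025 (SD, n = 3) for Rspo3-iECKO and 0.013 ± 0.053 (SD, n = 2) for Rspo3-WT. For Evi-iECKO it was -0.016 ± 0.14 (SD, n = 2), and for Evi-WT -0.049 ± 0.048 (SD, n = 3). The range of Evi-iECKO, -0.11 to 0.083, spanned the ranges of the other 3 groups.

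After group means were removed, 38 of 59 members correlated above 0 with the mean of the others over the 10 arrays, and 23 above 0.5. The median correlation was 0.195. The same shares over all genes were not taken, so these counts do not set the members apart. These arrays share their normalization and the gap between the Evi-iECKO replicates weighs heavily. Rpl27 and Rpl24, both of the large subunit, reached 0.97 and 0.96, while Rps18 (-0.91), Rpl19 (-0.80) and Rplp2 (-0.75) ran against the rest. By the same measure the non-member genes most like the members were Dpcd, Fzd7, Eif3g, Atp1b1, Pcsk5, Zdbf2, Uvssa, H2az1, Dnajc13 and Col3a1, at 0.96 to 0.98.

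The factors that work with the ribosome were read from lists of other genes, in none of which a gene passed in limma in either deletion. Of 18 measured cytosolic translation genes outside the name rule, such as elongation and initiation factors, 11 lay above 0 with the Rspo3 deletion and 7 with the Evi/Wls deletion, with medians of 0.045 and -0.039 and 0 calls in both. Nap1l1, a histone chaperone whose mRNA has an oligopyrimidine start, gave -0.41 with the Rspo3 deletion (SE 0.18, limma adjusted p = 1), and Eif4b, which helps the helicase of the cap complex, gave -0.50 with the Evi/Wls deletion (SE 0.19, limma adjusted p = 0.547). Of 74 measured mitochondrial ribosomal protein genes, 46 and 45 lay above 0, with medians of 0.052 and 0.079 and 0 calls. The medians of the cytosolic members, 0.066 and 0.054, were of the same size.

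Among 11 measured genes of translation initiation and its mTORC1 control, Eif2ak2 stood highest in both lines. It encodes PKR, a kinase that halts initiation when it binds double-stranded RNA and that interferon induces. It read 9.56, 9.35 and 8.78 in Rspo3-iECKO against 8.52 and 8.46, and 9.77 and 9.66 in Evi-iECKO against 8.99, 8.87 and 9.34. The groups were apart in both lines, and the mean of both deletions was 0.69 (SE 0.17, limma adjusted p = 0.406). Eif4e, the cap-binding protein, gave 0.73 and 0.30, and Rptor, the mTORC1 subunit that recruits substrates, -0.65 and 0.012. The list as a whole had 5 and 6 of 11 above 0 and 0 calls.

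Of 26 measured ribosome biogenesis genes, 12 and 14 lay above 0, with medians of -0.035 and 0.042 and 0 calls. Ltv1, which helps to assemble the small subunit, read 5.05, 5.16 and 5.04 in Rspo3-iECKO against 4.14 and 4.66, and 4.60 and 4.68 in Evi-iECKO against 4.17, 4.42 and 4.23. Its groups were apart in both lines at 0.68 and 0.37 (limma adjusted p = 0.503 for the mean of both deletions), and it was detected on 6 arrays. Nop58, a core protein of the particles that methylate ribosomal RNA, gave 0.69 with the Evi/Wls deletion and -0.37 with the Rspo3 deletion. Of 11 measured genes of RNA polymerase I, which transcribes ribosomal RNA, 7 and 5 lay above 0, with medians of 0.19 and -0.017 and 0 calls. Taf1d and Znrd1 of that list gave 0.58 and -0.51 with the Rspo3 deletion and -0.32 and 0.36 with the Evi/Wls deletion. At an unadjusted p below 0.05 the cytosolic translation genes held 0 on the high and 1 on the low side in each deletion. The mitochondrial ribosomal proteins held 4 and 1 with the Rspo3 deletion and 6 and 2 with the Evi/Wls deletion. The initiation genes held 2 and 1, then 1 and 0, the biogenesis genes 2 and 0, then 2 and 1, and the RNA polymerase I genes 1 and 1, then 0 and 1, in the same order. Rps27l, a p53-responsive relative of Rps27 that the rule leaves out, gave 0.21 and 0.62 (SE 0.19 in both).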

How the data were processed

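Per the file headers, the authors deposited the unnormalized mean bead intensity of every probe, and beside it a detection p-value. A second deposited table held normalized intensity on a linear scale. The scanner, the normalization method and the way the detection p-values were made are, in the sources used here, not given. The neqc function (offset 16) of limma 3.58.1 in R 4.3.3 corrected the background, equalised the arrays by quantiles and gave log2 values. Probes with detection p below 0.05 on at least 2 of 10 arrays were kept, 30017 of 46237. Gene names came from the platform annotation, updated through RefSeq (GRCm38.p6), and the brightest probe stood for each of 16144 genes. One limma model of the means of the 4 groups covered all genes, with Benjamini-Hochberg adjustment over all of them and a threshold of 0.05. Groups were called apart when every array of one lay above every array of the other. A fold against a group with no detection was bounded by the lowest detected signal. The number of arrays limits the precision. The fits of each deletion and of their mean were tested on simulated data. Figures used Python 3.11.15 and matplotlib 3.10.9.

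The members and the other lists were chosen with earlier results of these data known. The genes named were the members with the smallest p per direction and comparison, the stalk genes, paralogs and genes with known roles, the brightest and dimmest members, members whose probes differ, and up to 4 genes of each other list. Rps13, Rps3, Rps7 and Rpl24 in the contrast of the lines were chosen after their values were seen, as were the second probes and Rpl22l1 and Rps27l. Alternatives covered background correction, normalization, filters, the choice of probe, the variance prior, array weights, a replicate block, fits to 1 line, other thresholds and each array left out. Replicate numbers gave no sign of pairing the samples and were not used to pair them in the main fit.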

Additional observations from a re-analysis of the deposited data

Results flagged for a closer look

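Rpl22 and Rps2 were the members whose deleted arrays all lay on opposite sides of their controls in the 2 lines. For Rpl22 the Evi/Wls effect minus the Rspo3 effect was -0.6247, with a limma adjusted p = 0.809. For Rps2 it was 0.3235, with a limma adjusted p = 0.897. Neither difference passed. Among all genes 2.35% showed such opposite ordering, against 2 of 59 members.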

How the results depend on the processing

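With each alternative, 0 members passed in either deletion, the joint effect or the difference of the effects. Between the wild-type arms 1 member, Rplp2, passed without background correction (0.46, limma adjusted p = 0.0459), and 0 passed under the other alternatives. Median scaling moved the member median to 0.28 for the Rspo3 deletion, 0.13 for the joint effect, -0.26 for the difference of the effects and 0.27 for the wild-type arms, while the median of all genes moved to 0.11, 0.042, -0.13 and 0.090. The mean of all probes gave 0.084 for the wild-type arms. With single arrays left out the member median ranged from -0.0067 to 0.079 for the Rspo3 deletion, from -0.043 to 0.15 for the Evi/Wls deletion, from 0.018 to 0.090 for the joint effect, from -0.042 to 0.096 for the difference and from -0.032 to 0.086 for the wild-type arms.

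Of 1107 values of named members under alternatives, 1095 kept their direction and 12 did not. Median scaling turned Rpl12 (0.094) and Rpl29 (0.089) in the Rspo3 deletion and Rps2 (-0.029) and Rpl10a (-0.065) in the difference, and the mean of all probes turned Rpl29 (0.032). Leaving out an array gave ranges that crossed 0 for Rps6 (-1.32 to 0.24), Rps13 (-0.73 to 0.17) and Rps10 (-0.56 to 0.13) in the Evi/Wls deletion, for Rps6 (-0.61 to 0.17), Rps16 (-0.46 to 0.13) and Rps4l (-0.67 to 0.17) in the joint effect, and for Rps6 (-1.42 to 0.14) in the difference, each turned without Evi-iECKO replicate 1. The cause was not tested.

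The replicate block gave 0 member calls in each comparison and member medians of 0.035, 0.078, 0.037, 0.016 and 0.029, in the order above with the Evi/Wls deletion second. Deviations of same-numbered arrays correlated at -0.12 to 0.13, which gave no sign that the numbers pair the samples. With so few arrays per group this cannot exclude a pairing.

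In the contrast of the lines the gene fit called 0 of 59 members and 125 of 16144 genes. Median scaling called 29 of 59 members and 2927 of 16144 genes. Of the fits with an array dropped, only that lacking Evi-iECKO replicate 2 gave member calls. Its Evi-iECKO group was 1 array, so no share is given. Rplp2 passed in the contrast of the lines under all 5 other background corrections and normalizations. Rps2 passed without background correction and in the authors' normalized values. In the probe fit the Rps12, Rplp2 and Rpl27a probes passed under all 5 and the Rpl31 probe under 2 of 5.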
